A study of Mus musculus with 9 samples.

Results

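The immediate-early and stress response genes are 43 genes, many with RNA that appears soon after a signal or an insult. They were chosen by gene symbol, and each had at least 1 probe set that the platform annotation assigns to it alone, 81 probe sets in all, out of 18193 genes measured that way. RNA was measured on Affymetrix arrays in natural killer (NK) cells, cytotoxic lymphocytes of innate immunity, sorted from mice. The 3 groups, of 3 arrays each, were mature NK cells of IL15tg spleen, immature NK cells of NKDxIL15tg spleen and immature NK cells of NKDxIL15tg bone marrow, in the terms of the series' design text. All groups carry the IL15tg transgene, which supplies IL-15, the cytokine NK cells need to survive, so the IL15tg spleen cells are not wild-type controls. NKD is a transgenic line short of mature NK cells, in which the transgene is reported to have landed in the Atf2 gene, and Atf2 encodes a factor that binds DNA together with Jun proteins. The promoters of both transgenes, the age of the mice, the sort gate and any pooling of animals are not given in the sources used here. No group holds immature cells without the NKD transgene, so the effects of the genotype and of maturity cannot be told apart.

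An external signal reaches these genes through kinases and through calcium. ERK kinases act on the serum response factor at the CArG box of EGR and FOS family genes, cyclic AMP and stress kinases act through the cyclic AMP response element, NF-kB switches on its own inhibitors, and the heat shock factor switches on chaperones. The first proteins made are transcription factors (AP-1, EGR, NR4A, KLF). They are followed by proteins that end the response, such as the DUSP phosphatases, which remove phosphate from the kinases, IkB-alpha and A20, which stop NF-kB, and tristetraprolin, which destroys short-lived mRNAs. In lymphocytes the same genes respond to receptor engagement and also to the handling of cells during isolation.

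Start-site sequences were taken from RefSeq (GRCm38.p6) for 35 of the 43 genes, as 250 bases before and 50 after each start, and searched on both strands. They are shown to let the named elements be seen in genes that did and did not differ. In each line only bases before the start are printed, 5′ to 3′, and capitals mark the element named after the gene.
Fos (TATAAA), chr12:85473770-85473889, plus strand: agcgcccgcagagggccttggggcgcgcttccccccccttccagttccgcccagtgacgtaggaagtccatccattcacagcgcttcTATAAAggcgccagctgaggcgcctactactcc
Zfp36 (CArG box), chr7:28379229-28379328, minus strand: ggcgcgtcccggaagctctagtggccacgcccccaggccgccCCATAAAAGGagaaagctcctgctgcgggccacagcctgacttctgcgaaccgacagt
Dusp5 (CArG box), chr19:53529045-53529144, plus strand: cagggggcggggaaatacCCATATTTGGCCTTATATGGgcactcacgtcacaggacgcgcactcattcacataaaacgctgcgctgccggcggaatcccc
Egr2 (CArG box), chr10:67537426-67537565, plus strand: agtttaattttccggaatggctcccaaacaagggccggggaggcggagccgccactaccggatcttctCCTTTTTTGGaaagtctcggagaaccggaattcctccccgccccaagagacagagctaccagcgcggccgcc
Ppp1r15a (cyclic AMP response element), chr7:45526269-45526328, minus strand: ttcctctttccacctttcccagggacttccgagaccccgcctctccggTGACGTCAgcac
Dusp1 (cyclic AMP response element), chr17:26508473-26508622, minus strand: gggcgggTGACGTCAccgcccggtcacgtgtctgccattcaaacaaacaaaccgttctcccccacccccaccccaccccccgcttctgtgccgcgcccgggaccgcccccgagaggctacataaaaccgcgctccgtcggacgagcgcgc
Btg2 (cyclic AMP response element), chr1:134079156-134079325, minus strand: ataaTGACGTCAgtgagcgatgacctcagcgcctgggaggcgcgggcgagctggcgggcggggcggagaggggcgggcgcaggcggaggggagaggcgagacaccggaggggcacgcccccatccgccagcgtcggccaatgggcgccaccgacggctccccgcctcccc
Nfkbia (kappa B site), chr12:55492648-55492707, minus strand: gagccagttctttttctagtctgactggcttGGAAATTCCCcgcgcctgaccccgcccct
Tnfaip3 (kappa B site), chr10:19015411-19015470, minus strand: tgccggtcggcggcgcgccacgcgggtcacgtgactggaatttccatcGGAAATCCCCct

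A CArG box lay in the windows of 3 of the 35 genes (8.57%), Dusp5, Egr2 and Zfp36, against 1.81% of 27025 genes. A full cyclic AMP response element, TGACGTCA, lay in 4 (11.4%, against 2.03%), Btg2, Dusp1, Maff and Ppp1r15a. A kappa B site lay in 8 (22.9%, against 5.14%), TATAAA in 10 (28.6%, against 15.7%) and the AP-1 element TGANTCA in 2 (5.71%, against 8.97%). The heat shock element was in 0 of these windows and in 0.662% of all genes' windows. These are letter matches, not measured sites, and genes with several start sites have more sequence to match. The 8 genes without a window, which were not searched, were Cd69, Nfkbiz, Myc, Egr3, Egr1, Klf10, Rgs1 and Ier2. Elements more than 250 bases before a start, in Fos or any other gene, were outside the windows.

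The 9 arrays were checked before the genes were compared. Of the NK cell genes, Ncr1, which encodes NKp46, read 789 to 1842 and Nkg7, a granule protein, 4287 to 5591 over the 9 arrays. The receptor genes Klrk1 and Klrd1 and the factor Tbx21 fell in NKDxIL15tg spleen, from means of 1383, 5941 and 2036 to 173, 1232 and 840. Cd160 rose, from 1208 to 1861, and 9 of the 13 NK cell genes, Ncr1 (1642 to 1078) among them, did not pass. Of the T cell receptor complex, Cd3e read 41.0 to 87.8, Cd3g 60.1 to 458 and Cd3d 191 to 651, and Cd28, a T cell costimulatory receptor, 342 to 1776. Among the 8 T cell genes tested, Cd28 alone rose in NKDxIL15tg spleen. NKDxIL15tg bone marrow replicate 3 stood apart, with a median intensity of 64.9 against 56.6 to 59.1 elsewhere. In it 7.70% of tested probe sets exceeded every other array more than 2-fold, against at most 0.0222% in each other array. Of the 40 members 1 did so there, Gadd45b, and 1 in IL15tg spleen replicate 3, Hspa1b. The log2 ratio of 3′ to 5′ signal of Gapdh, a sign of RNA length, was 1.99 to 3.21 in IL15tg spleen, 1.62 to 1.87 in NKDxIL15tg spleen and 1.87 to 2.33 in bone marrow.

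Of the 43 genes, 40 passed the filter on low signal. Fosb, Hspa1a and Ier3 did not, with mean intensities of 26.1 to 37.1, 29.2 to 75 and 45.9 to 47.7 over the groups. A gene is represented by the probe set with its highest mean. A change is the difference of mean log2 intensity ± its standard error, over 3 arrays a group, and a gene is said to have risen or fallen where limma's p-value, adjusted by Benjamini-Hochberg over 27040 probe sets, was under 0.05.

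Immature and mature NK cells of the same organ were compared as NKDxIL15tg spleen against IL15tg spleen. Of the 40 genes, 12 fell, 3 rose and 25 did not pass. The 15 that passed compare with 12.5% of genes and 13.8% of probe sets. The share that fell was 30%, against 4.86% of the 12932 genes tested, and the share that rose was 7.50%, against 7.66%. The median change was -0.48, against 0.02 over all genes, and 33 of 40 changes were negative (82.5%, against 46.3% of all genes). In 21 genes (52.5%, against 15.1%) all 3 NKDxIL15tg arrays lay below all 3 IL15tg arrays, and in 3 (against 21.3%) above them. Without IL15tg replicate 1, and likewise without IL15tg replicate 2, 9 genes passed in place of 15 (7 fell and 2 rose). All 9 arrays share the estimate of spread, and without bone marrow replicate 3, which is in neither group, 21 passed (18 fell and 3 rose). The 6 added were Jun, Egr3, Dusp1, Hspa1b, Ier5 and Btg2, with the same changes and adjusted p of 0.00791 to 0.0396. The count over all 27040 probe sets moved as well, from 3727 with all arrays to between 1809 and 5485 without 1 array. Less RNA per cell and fewer cells that make it cannot be told apart in sorted bulk samples.

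**Figure D1:**
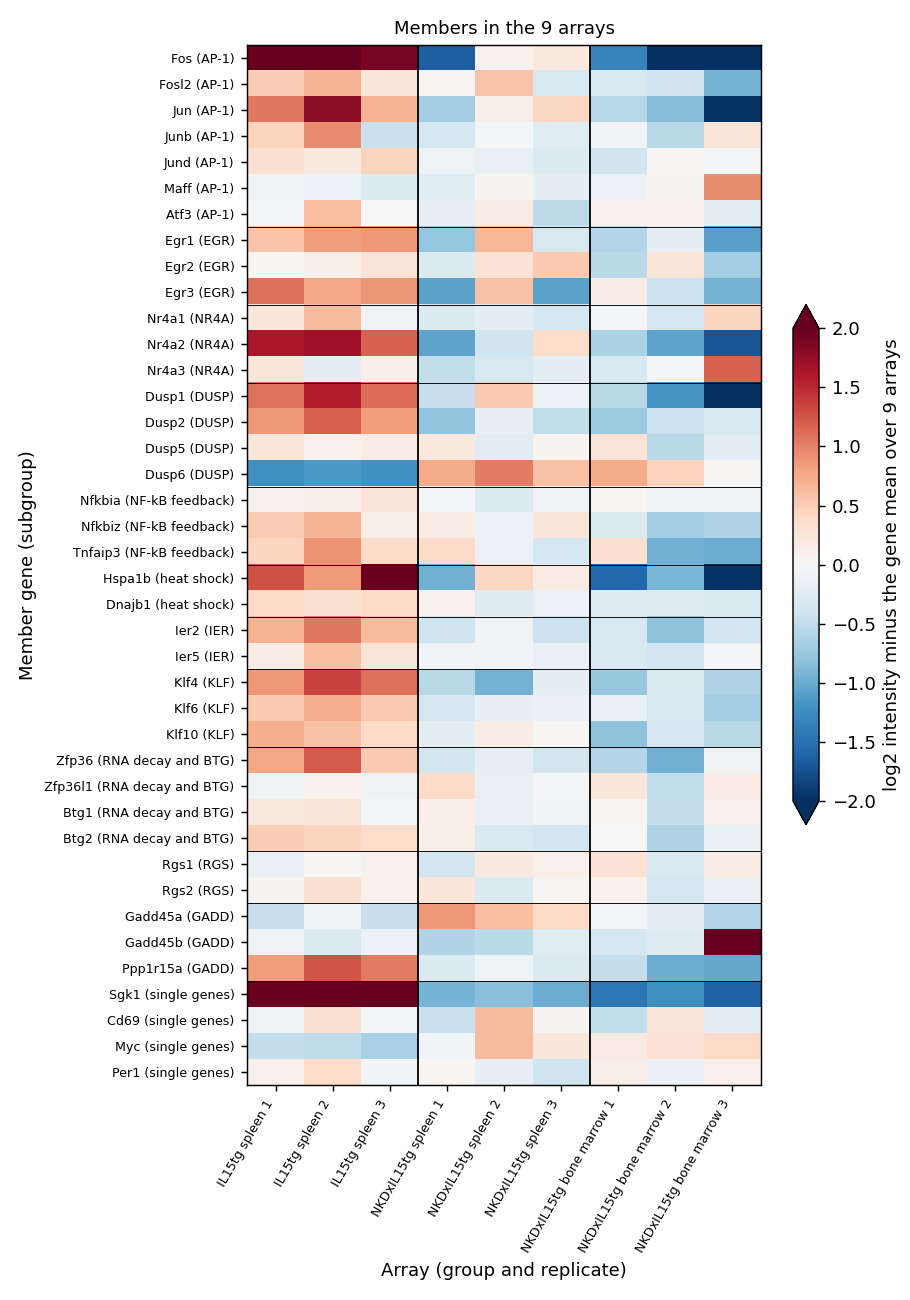
Log2 intensity of the 40 tested members in each of the 9 arrays (columns, grouped by tissue and genotype), shown as the difference from the gene's mean over all arrays, red above and blue below, with colours limited at 2 in either direction; intensities under 16 were set to 16. IL15tg spleen arrays are red in most rows of the AP-1, DUSP, IER and KLF blocks, while Dusp6, Gadd45a and Myc run the other way in NKDxIL15tg spleen.

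In the AP-1 family, whose Fos and Jun proteins bind DNA as pairs, 2 of 7 tested genes fell and 0 rose, with a median of -0.49. Fos read 1315, 2264 and 1180 in the IL15tg spleen arrays, 101, 337 and 365 in NKDxIL15tg spleen and 125, 76.6 and 77.8 in NKDxIL15tg bone marrow. All 6 NKDxIL15tg arrays were lower than the lowest IL15tg array; NKDxIL15tg spleen replicate 1 was far below the other 2 of its group. Fos fell by 2.72 ± 0.48 in spleen (6.57-fold, adjusted p = 0.00692, and 0.00108 to 0.0347 over 19 alternatives). Jund, a Jun protein present in resting cells, read 2480, 2316 and 2743 in IL15tg spleen, 1877, 1808 and 1670 in NKDxIL15tg spleen and 1527, 2039 and 1965 in bone marrow. It fell by 0.49 ± 0.14 (1.41-fold, adjusted p = 0.0432). This call was lost in 10 of 19 alternatives (range of adjusted p 0.0171 to 0.143), among them each fit without 1 of the 6 spleen arrays (0.0757 to 0.143) and the fit with the replicate number as a block (0.0649).

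Jun itself, the usual partner of Fos, read 243, 404 and 188 in IL15tg spleen, 72.0, 128 and 155 in NKDxIL15tg spleen and 78.9, 64.7 and 29.5 in bone marrow. The groups did not overlap in spleen, but the change of -1.23 ± 0.43 did not pass (adjusted p = 0.0963, and 0.0234 without bone marrow replicate 3). A second, dimmer probe set of Jun fell by 0.59 ± 0.12 (adjusted p = 0.0115). Fosl2, Junb and Atf3, which feed the same dimers, were at -0.37, -0.51 and -0.37, and Maff, a small Maf protein, was at 0.03; none passed, and the groups overlapped in each.

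The EGR genes are zinc finger factors of the ERK pathway. With all arrays 0 of 3 passed by the brightest probe set, and without bone marrow replicate 3 Egr3 passed (adjusted p = 0.0277). Egr1 read 563, 673 and 691 in IL15tg spleen, 222, 598 and 301 in NKDxIL15tg spleen and 251, 335 and 177 in bone marrow. NKDxIL15tg spleen replicate 2 lay within the IL15tg range and the other 2 arrays below it (-0.90 ± 0.35, adjusted p = 0.128). Egr3 read 166, 132 and 142 in IL15tg spleen against 36.9, 116 and 36.6 in NKDxIL15tg spleen, again with replicate 2 nearest to the IL15tg arrays (-1.44 ± 0.43, adjusted p = 0.0593). Its dimmer second probe set did not go this way (0.1 ± 0.19, adjusted p = 0.828). There the NKDxIL15tg spleen arrays lay slightly above the IL15tg arrays, at 56.8, 56.8 and 55.2 against 50.7, 51.9 and 55.0. Egr2, with a CArG box in several of its start windows, did not run the way of the brightest probe sets of Egr1 and Egr3. Its values of 348, 373 and 406 in IL15tg spleen and 281, 414 and 490 in NKDxIL15tg spleen overlapped (0.04 ± 0.27), and its second probe set rose by 0.63 ± 0.15 (adjusted p = 0.0224).

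Among the NR4A orphan nuclear receptors, which antigen receptor signals induce in lymphocytes, 1 of 3 fell. Nr4a2 read 684, 709 and 503 in IL15tg spleen, 107, 168 and 285 in NKDxIL15tg spleen and 142, 106 and 67.5 in bone marrow. It fell by 1.86 ± 0.37 (3.62-fold, adjusted p = 0.0118, range 0.00136 to 0.0527), and the call was lost without IL15tg replicate 1 (0.0519) and without IL15tg replicate 2 (0.0527). The 6 probe sets of Nr4a2 split: 3 fell, by 1.86 to 2.57, and 3 did not pass, at -0.47, 0.06 and 0.13. Nr4a1 read 477, 645 and 393 in IL15tg spleen and 341, 362 and 323 in NKDxIL15tg spleen, a difference of -0.53 ± 0.22 that did not pass (adjusted p = 0.157). Nr4a3 was at -0.39 ± 0.33 (adjusted p = 0.528).

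The DUSP phosphatases ran in opposite directions. Dusp2, a nuclear phosphatase of activated lymphocytes, read 634, 802 and 626 in IL15tg spleen, 203, 313 and 249 in NKDxIL15tg spleen and 211, 260 and 280 in bone marrow. It fell by 1.44 ± 0.19 (2.72-fold, adjusted p = 0.00147). Dusp6, the cytoplasmic phosphatase of ERK, read 192, 204 and 195 in IL15tg spleen, 751, 921 and 677 in NKDxIL15tg spleen and 756, 623 and 461 in bone marrow. It rose by 1.98 ± 0.19 (3.94-fold, adjusted p = 0.000247), and all 6 NKDxIL15tg arrays stood above all 3 IL15tg arrays. Both calls were kept in all 19 alternatives. Dusp1, which acts on stress kinases and on ERK, read 1319, 1843 and 1352 in IL15tg spleen and 450, 896 and 574 in NKDxIL15tg spleen, without overlap (-1.28 ± 0.37, adjusted p = 0.0511, 0.0467 with the replicate block and 0.00791 without bone marrow replicate 3). Dusp5, a nuclear ERK phosphatase with a pair of adjoining CArG boxes in its window, overlapped between the groups (-0.13 ± 0.20).

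**Figure D2:**
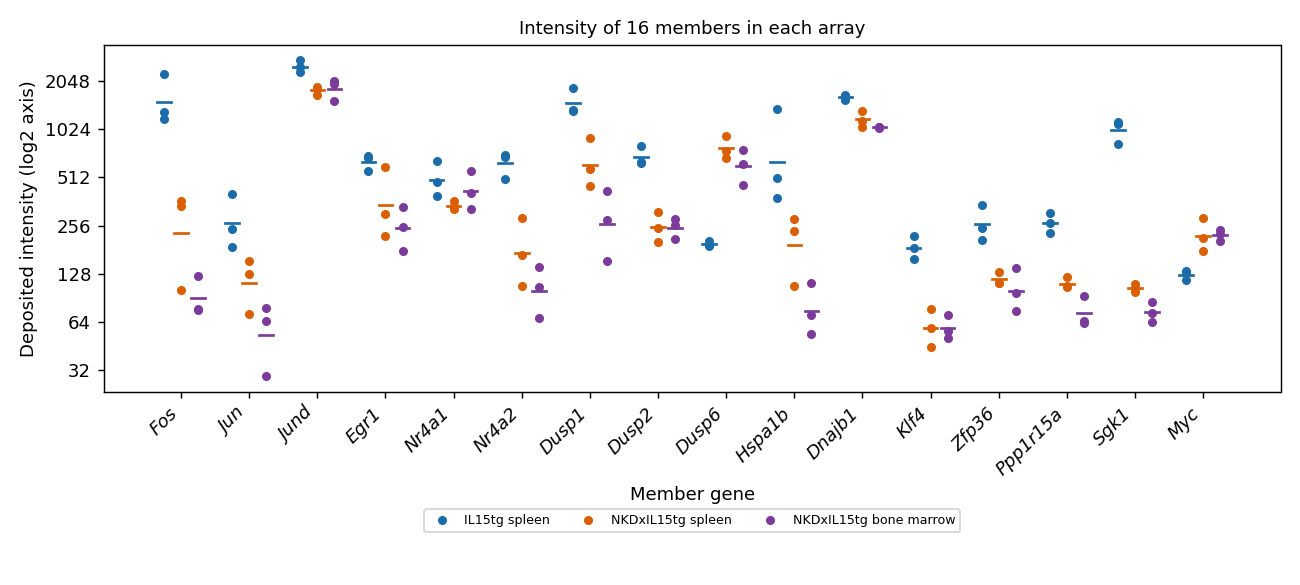
Deposited intensity (log2 axis) of 16 members in each array; points are arrays, horizontal bars are geometric means of 3 arrays, and colours are the groups. Fos, Dusp2, Klf4, Ppp1r15a and Sgk1 are higher in all IL15tg spleen arrays than in any NKDxIL15tg array, Dusp6 and Myc lower, and Nr4a1 overlaps between IL15tg spleen and bone marrow.

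The 3 feedback inhibitors of NF-kB were lower in value, and none passed. Nfkbia, which encodes IkB-alpha, read 4819, 4985 and 5484 in IL15tg spleen, 4439, 3744 and 4359 in NKDxIL15tg spleen and 4649, 4346 and 4314 in bone marrow. The spleen groups did not overlap, at a small difference of -0.29 ± 0.11 (1.22-fold, adjusted p = 0.123). Tnfaip3, which encodes A20, was at -0.61 ± 0.35 (adjusted p = 0.313), from 1017 ± 211 to 674 ± 183 (SD, n = 3). Nfkbiz, a nuclear IkB protein, was at -0.34 ± 0.18 (adjusted p = 0.248), while its second probe set fell by 0.62 ± 0.14 (adjusted p = 0.0217).

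Of the heat shock genes, Dnajb1, a co-chaperone of HSP70, read 1646, 1554 and 1664 in IL15tg spleen, 1328, 1056 and 1157 in NKDxIL15tg spleen and 1050, 1058 and 1041 in bone marrow. It fell by 0.46 ± 0.11 (1.38-fold, adjusted p = 0.0239, range 0.00116 to 0.0976). The call was lost without IL15tg replicates 1, 2 or 3 (0.0863, 0.0648 and 0.0815), without NKDxIL15tg spleen replicates 2 or 3 (0.0804 and 0.0610) and with scaling to a common 75th percentile (0.0976), while its dimmer second probe set fell by 0.82 ± 0.12 (adjusted p = 0.00290). Hspa1b encodes inducible HSP70 and is nearly identical to Hspa1a, so their probe sets may read both. It read 510, 381 and 1359 in IL15tg spleen, 108, 280 and 237 in NKDxIL15tg spleen and 71.1, 112 and 54.2 in bone marrow. IL15tg replicate 3 stood far above the other arrays of its group, and the change of -1.73 ± 0.51 did not pass with all arrays (adjusted p = 0.0557) but did without bone marrow replicate 3 (0.0297), and the spleen groups did not overlap.

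Ier2, an immediate-early gene of the IER family, read 739, 946 and 706 in IL15tg spleen, 347, 434 and 337 in NKDxIL15tg spleen and 365, 262 and 351 in bone marrow, without overlap between genotypes. It fell by 1.09 ± 0.18 (2.13-fold, adjusted p = 0.00443). Ier5, a partner of the heat shock factor, was at -0.43 ± 0.14 (adjusted p = 0.0836, and 0.0396 without bone marrow replicate 3), and 1 of its other probe sets fell by 0.78 ± 0.11 (adjusted p = 0.00297).

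All 3 KLF genes, zinc finger factors, fell. Klf4, a factor of cell cycle exit, read 158, 222 and 186 in IL15tg spleen, 59.1, 45.1 and 76.9 in NKDxIL15tg spleen and 51.2, 71.2 and 56.6 in bone marrow. It fell by 1.67 ± 0.22 (3.17-fold, adjusted p = 0.00152). Klf6 read 1349, 1558 and 1350 in IL15tg spleen, 742, 840 and 856 in NKDxIL15tg spleen and 850, 751 and 587 in bone marrow. It fell by 0.80 ± 0.15 (1.74-fold, adjusted p = 0.00895); of its 3 other tested probe sets 2 fell, by 0.78 and 0.88, and 1 was at 0.01. Klf10, induced by TGF-beta, read 485, 443 and 384 in IL15tg spleen, 259, 327 and 299 in NKDxIL15tg spleen and 168, 232 and 201 in bone marrow. Its groups did not overlap. Its fall of 0.57 ± 0.15 (adjusted p = 0.0413, range 0.0123 to 0.149) was lost in 10 of 19 alternatives, among them each fit without 1 of the 6 spleen arrays (0.0583 to 0.149).

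Zfp36 encodes tristetraprolin, which binds AU-rich mRNAs and speeds their decay, and its window holds the CArG box shown. It read 249, 342 and 209 in IL15tg spleen, 113, 131 and 113 in NKDxIL15tg spleen and 97.4, 74.8 and 139 in bone marrow. It fell by 1.13 ± 0.24 (2.20-fold, adjusted p = 0.0161, range 0.00172 to 0.0619), a call lost without the first array of NKDxIL15tg spleen (0.0505) or of IL15tg spleen (0.0535) and without IL15tg replicate 2 (0.0619). The related Zfp36l1 overlapped between the groups (0.11 ± 0.21). Btg1 and Btg2 restrain division and recruit the deadenylase of mRNAs. Btg2 did not overlap, at 1252, 1202 and 1154 against 968, 722 and 685 (-0.62 ± 0.18, adjusted p = 0.0565, 0.0369 with the replicate block and 0.0361 without bone marrow replicate 3), and Btg1 was at -0.17 ± 0.17. A dimmer probe set of Btg1 read 3136, 2869 and 2482 against 1698, 1247 and 1515, without overlap (-0.93 ± 0.27, adjusted p = 0.0532). Its remaining probe set was at -0.1.

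The RGS genes, which switch off G protein signals, showed no such difference. Rgs2 read 3084, 3689 and 3195 in IL15tg spleen, 3484, 2465 and 3030 in NKDxIL15tg spleen and 3146, 2331 and 2703 in bone marrow. All groups overlapped (-0.16 ± 0.16, adjusted p = 0.606), as they did for Rgs1 (-0.01 ± 0.19, adjusted p = 0.983). Cd69, the activation antigen that holds lymphocytes in tissues, also overlapped, at 361, 472 and 373 against 280, 587 and 394 (0.01 ± 0.28, adjusted p = 0.992).

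The stress genes of the GADD block differed from each other. Ppp1r15a, also called Gadd34, directs a phosphatase to restart translation after stress, and the element TGACGTCA lies shortly before its start, in the stretch shown. It read 231, 308 and 267 in IL15tg spleen, 107, 122 and 106 in NKDxIL15tg spleen and 93.3, 64.9 and 63.7 in bone marrow, and fell by 1.26 ± 0.17 (2.39-fold, adjusted p = 0.00207). Gadd45a, a p53 target of DNA damage and growth arrest, read 50, 64.4 and 49.8 in IL15tg spleen, 125, 104 and 90.2 in NKDxIL15tg spleen and 66.7, 60.3 and 45.6 in bone marrow. It rose by 0.95 ± 0.19 (1.94-fold, adjusted p = 0.0107, range 0.00225 to 0.0508), with 0.0508 without IL15tg replicate 1. It was high in NKDxIL15tg spleen, and the bone marrow arrays overlapped the IL15tg arrays. Gadd45b read 289, 248 and 280 in IL15tg spleen and 199, 209 and 256 in NKDxIL15tg spleen by its brightest probe set (-0.31 ± 0.62), whereas a dimmer one fell by 1.18 ± 0.19 (adjusted p = 0.00424).

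Sgk1, a kinase induced by serum and by glucocorticoids, had the largest change of the tested members. It read 1140, 1098 and 829 in IL15tg spleen, 104, 111 and 99.4 in NKDxIL15tg spleen and 73.1, 85.3 and 64.6 in bone marrow. It fell by 3.27 ± 0.15 (9.66-fold, adjusted p = 4.15e-06, and 1.32e-07 to 8.23e-05 over 19 alternatives). Per1, a clock gene that also responds to glucocorticoids, overlapped (-0.31 ± 0.16, adjusted p = 0.251). Myc, the growth factor-induced driver of cell growth, ran the other way. It read 133, 130 and 118 in IL15tg spleen, 178, 286 and 215 in NKDxIL15tg spleen and 206, 226 and 241 in bone marrow, and rose by 0.81 ± 0.17 (1.75-fold, adjusted p = 0.0144, range 0.00410 to 0.0592), but not without IL15tg replicates 2 (0.0514) or 3 (0.0592).

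**Figure D3:**
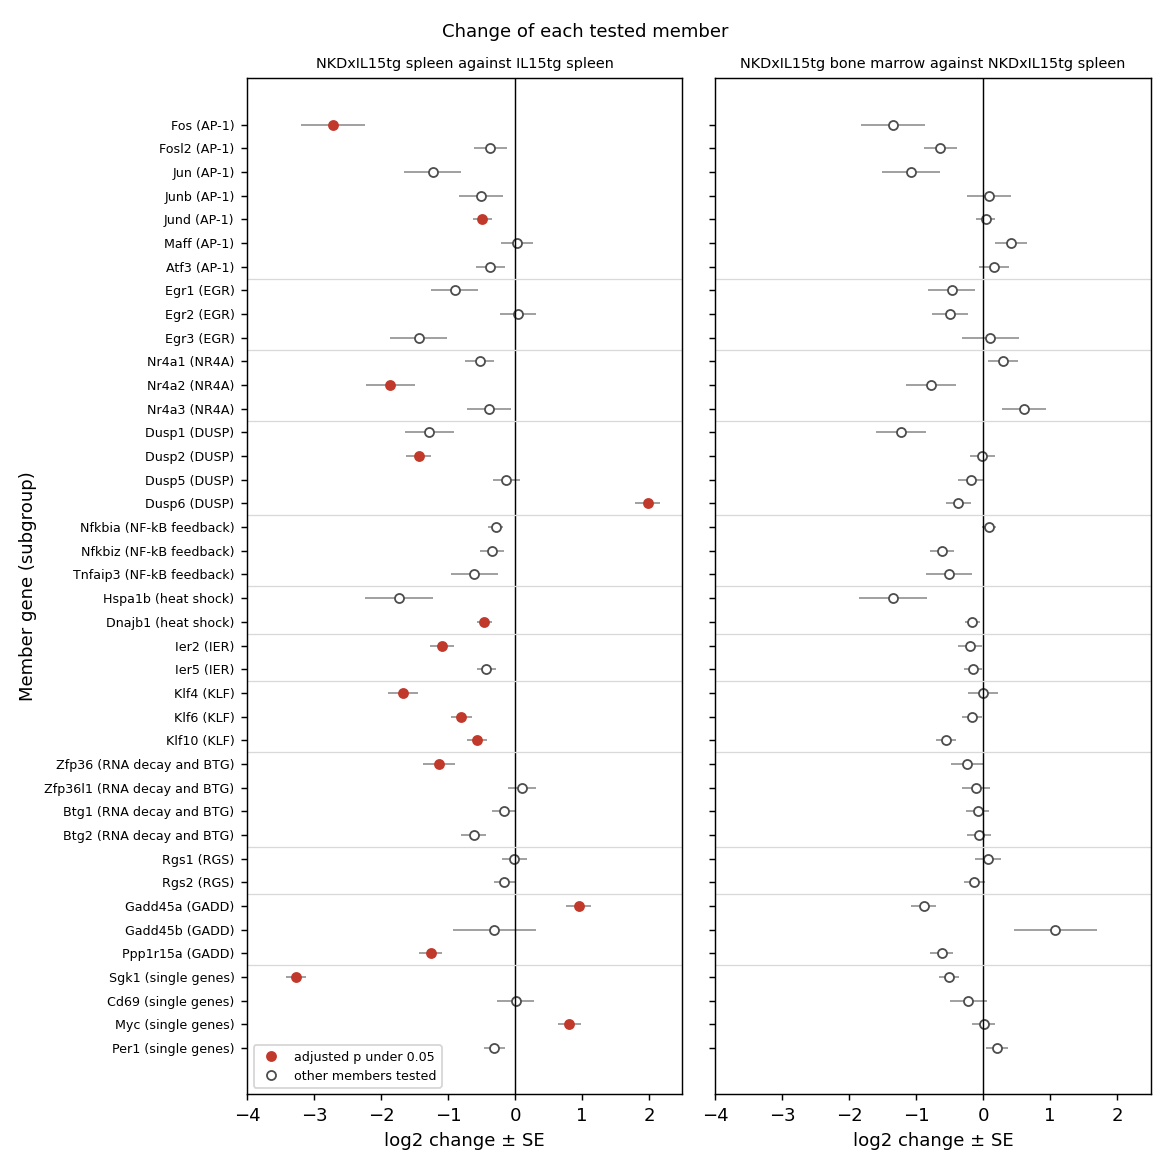
Log2 change ± standard error of the 40 tested members (rows, by block) in NKDxIL15tg spleen against IL15tg spleen (left) and in NKDxIL15tg bone marrow against NKDxIL15tg spleen (right); filled red points have an adjusted p under 0.05. On the left 12 members lie below 0 and 3 above with filled points; on the right 0 are filled.

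Of the 16 members with 2 or more tested probe sets, 7 had a further probe set whose call differed in this comparison (Egr2, Gadd45b, Ier5, Jun, Klf6, Nfkbiz and Nr4a2), and 23 of the 29 further probe sets had the sign of the brightest. Where probes lie within the transcripts was not used here.

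Other genes of these pathways were counted from lists, beside a share of 12.5% called among all genes (4.86% lower and 7.66% higher). In lists of this size 1 gene moves the share by several points, and whether the lists differ from each other or from all genes was not tested. The calls made up 18.8% of the ERK list, 12.5% of the stress kinase list, 30% of the calcium list, 6.25% of the NF-kB list and 17.6% of the chaperones. They made up 30.8% of the glucocorticoid-induced genes and 20% each of the stress and p53 list and of the other immediate-early genes. In the same order the shares that fell were 6.25%, 6.25%, 10%, 6.25%, 17.6%, 15.4%, 6.67% and 16%. Those that rose were 12.5%, 6.25%, 20%, 0%, 0%, 15.4%, 13.3% and 4%. In the other immediate-early list 20 of 25 changes were negative, with a median of -0.36 (0.02 over all genes). Of 16 tested genes of the ERK and serum response factor arm, 2 rose and 1 fell. They were Spry1 (0.89 ± 0.21, adjusted p = 0.0243), a feedback inhibitor of ERK like Dusp6, Rasgrp1 (0.53 ± 0.12), which loads Ras, and Rps6ka3 (-0.47 ± 0.10), a kinase below ERK. In the stress kinase and CREB arm, 1 of 16 rose, Rps6ka5 (1.01 ± 0.23), which phosphorylates CREB, and 1 fell, Map3k5 (-0.63 ± 0.14). In the calcium and NFAT arm, 2 of 10 rose, Rcan1, a calcineurin inhibitor (1.15 ± 0.22), and Nfatc2 (0.79 ± 0.19), and Nfatc3 fell (-0.69 ± 0.16). Of 16 genes of the NF-kB core and its targets, 1 fell and 0 rose: Malt1, a protease that relays receptor signals to NF-kB, by 1.37 ± 0.21 (704 to 271, adjusted p = 0.00376).

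Of 17 further chaperone and heat shock factor genes, 3 fell and 0 rose, led by Hsph1 (1191 to 553), an HSP70 relative that fell by 1.11 ± 0.18, and Dnajb4 (-0.71 ± 0.17). Of 13 glucocorticoid-induced genes tested besides Sgk1, Il7r (-3.08 ± 0.20) and Klf9 (-0.85 ± 0.15) fell, and Ddit4 (0.66 ± 0.11) and Cxcr4 (0.59 ± 0.15) rose. In bone marrow against IL15tg spleen 4 fell, with Tsc22d3 (-0.81 ± 0.22) and Nr3c1 (-0.57 ± 0.17), the receptor itself, added, and the same 2 rose. Of 15 integrated stress and p53 target genes, Ccng1 (0.70 ± 0.16) and Trp53inp1 (0.52 ± 0.14), both p53 targets like Gadd45a, rose, and Gadd45g fell by 1.44 ± 0.19. Of 25 other immediate-early genes, 4 fell and 1 rose. Rhob, a small GTPase, fell by 1.33 ± 0.16, Zfp36l2, a relative of tristetraprolin, fell by 0.76 ± 0.19, and Crem, a repressor at cyclic AMP response elements, rose by 1.11 ± 0.12 (adjusted p = 0.000648). These counts moved when 1 array was left out, which also leaves fewer samples. The cause of the moves was not tested. The ERK arm had 0 calls without any 1 of the 3 IL15tg arrays and 1 without NKDxIL15tg spleen replicate 2. The stress kinase arm had 0 without IL15tg replicates 1 or 3. It had 1 without IL15tg replicate 2 or NKDxIL15tg spleen replicate 2, and the calcium arm, the chaperones and the stress and p53 list each had 1 without any single one of those 4 arrays. Without bone marrow replicate 3 the chaperones had 5, the stress and p53 list 5, the NF-kB list 2 and the other immediate-early genes 10; the last had 2 without IL15tg replicate 2 and 3 without NKDxIL15tg spleen replicate 3.

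Markers of other cell types moved between the same groups. The summed intensity of 18 granulocyte and monocyte genes was 5491 to 5786 in IL15tg spleen, 7374 to 12266 in NKDxIL15tg spleen and 16113 to 36420 in bone marrow. That of 11 dendritic cell and MHC class II genes was 5280 to 8031, 2351 to 2676 and 1565 to 2104, and that of 11 B cell genes 1261 to 2027, 896 to 1003 and 759 to 2412. Bone marrow replicate 3 gave the highest of these bone marrow sums, and without it they reached 23148, 1598 and 903; its Cd22 read 1898, against 206 to 343 in the other arrays. The B cell genes Ms4a1, Cd79b and Cr2 were lowest in all 3 bone marrow arrays. Pax5 (64.3 to 89.6) and Vpreb1 (41.0 to 58.3, under the filter) were highest there. Of the 8 B cell genes tested, 4 were lower and 4 higher in value in bone marrow than in NKDxIL15tg spleen. The 10 erythroid genes summed to 1990 to 2146, 7815 to 8410 and 5781 to 7711, and the 10 T cell genes to 1493 to 1582, 2833 to 3332 and 2565 to 3476. The 13 NK cell genes summed to 48365 to 50146, 38011 to 41710 and 32366 to 34599. In spleen, 6 of 16 tested granulocyte and monocyte genes rose and 1 fell, 3 of 9 erythroid genes rose, 1 of 8 T cell genes rose, 5 of 8 B cell genes fell and 6 of 10 dendritic cell genes fell, and of the 13 NK cell genes 3 fell and 1 rose. Myeloid, dendritic and B cells express many of the immediate-early genes too. The part of other cells, and of the Gapdh ratio given above, in the members' differences was not tested.

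**Figure D4:**
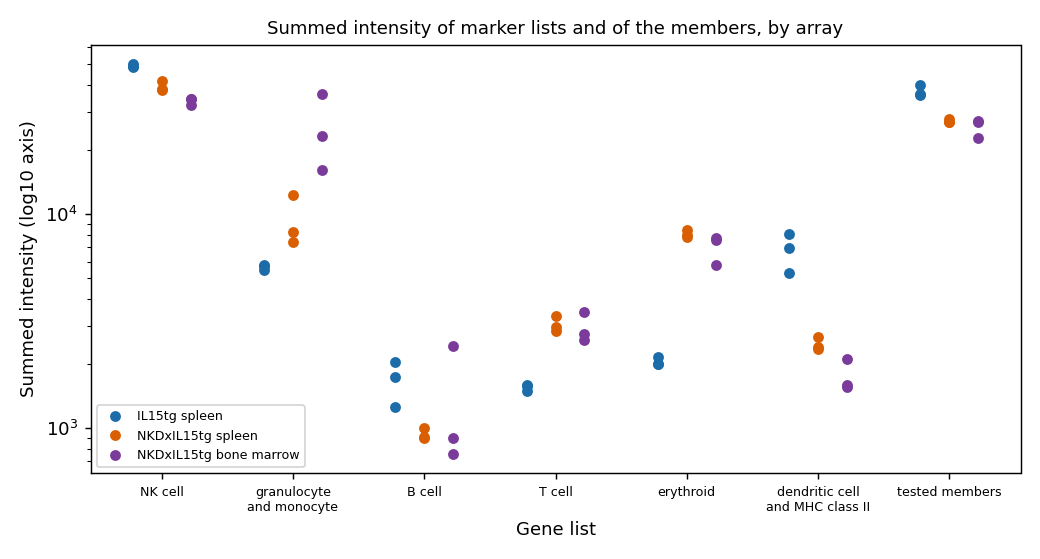
Summed intensity (log10 axis) of 6 marker lists and of the 40 tested members in each array; points are arrays and colours are groups. Members summed to 35864 to 39951 in IL15tg spleen, 26853 to 27858 in NKDxIL15tg spleen and 22695 to 27274 in bone marrow, while granulocyte and monocyte genes run the other way.

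NKDxIL15tg bone marrow against NKDxIL15tg spleen compared the organs within the genotype. Of the 40 members 0 passed in limma, where 10 had an unadjusted p under 0.05, all lower in bone marrow. The background is as sparse: 14 of all 27040 probe sets (0.0518%) passed, as did 0.0696% of genes (0.0464% lower and 0.0232% higher), and 10.4% of probe sets had an unadjusted p under 0.05. With the replicate number as a block 23 probe sets and again 0 members passed. The labels do not say whether same-numbered samples belong together. In 6 members (15%, against 6.03% of genes) all bone marrow arrays lay below all spleen arrays, and the reverse held for 0 (against 10.8%). They were Dusp1, Nfkbiz, Klf10, Gadd45a, Ppp1r15a and Sgk1. Between these groups 3 of 16 granulocyte and monocyte genes rose and 2 of 8 B cell genes fell, and their part in the members' values was not tested.

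Dusp1 read 423, 277 and 153 in bone marrow against 450, 896 and 574 in spleen (-1.23 ± 0.37, adjusted p = 0.387). Gadd45a was at -0.89 ± 0.19, which was the lowest adjusted p of the members (0.287). Nfkbiz read 304, 232 and 244 against 409, 342 and 437 (-0.61 ± 0.18, adjusted p = 0.375). In each of these the groups were apart without passing the threshold. Fos (-1.35 ± 0.48), Hspa1b (-1.35 ± 0.51) and Jun (-1.08 ± 0.43) were lower in value too, with overlapping arrays by the brightest probe set. Dimmer tested probe sets of Hspa1b (-1.64 ± 0.5) and Jun (-0.42 ± 0.12) did not overlap and did not pass (adjusted p = 0.389 and 0.363). Of the 16 members with 2 or more tested probe sets, 6 had a further probe set of the other sign, and 0 had a call that differed.

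Bone marrow replicate 3, the array that stood apart, held the lowest value of 13 of the 40 members over all 9 arrays, among them Jun and Dusp1, and the highest of 3. The highest were Maff (95.4, against 41.5 to 52.2 in the other arrays), Nr4a3 (663, against 210 to 347) and Gadd45b (1664, against 199 to 289). The share of all genes with their lowest or highest value of the 9 arrays here was not counted. Within its group, replicate 3 was lowest for 17 of the 40 members (42.5%, against 30.6% of genes) and highest for 10 (25%, against 47.1%). Without it 0 members passed between the organs, against 14 of all probe sets (0.0518%), and the lowest adjusted p of the members was 0.312. Of the 40 members 8 had an unadjusted p under 0.05, all lower, against 8.22% of probe sets. The changes of Maff, Nr4a3 and Gadd45b went from 0.42, 0.61 and 1.08 to 0.10, 0.16 and 0.16, that of Dusp1 from -1.23 to -0.84 and that of Jun from -1.08 to -0.66.

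NKDxIL15tg bone marrow against IL15tg spleen differs in organ, maturity and genotype together, and shares its arrays with both comparisons above. In it 22 of 40 members passed (55%, against 20.2% of genes and 21.3% of probe sets). Of these 20 fell (50%, against 8.70% of genes) and 2 rose (5%, against 11.5%), with the same counts without bone marrow replicate 3. The 12 that fell in spleen fell here as well, and so did Jun, Hspa1b, Dusp1, Egr1, Fosl2, Nfkbiz, Btg2 and Ier5. Of the 16 members with 2 or more tested probe sets, 9 had a further probe set whose call differed here. The 3 with a further probe set of the other sign were Egr3, Gadd45b and Nr4a2. Of the 29 further probe sets, 25 had the sign of the brightest. A further probe set of Fosl2, of Btg2 and of Ier5 did not pass, at -0.09, -0.2 and -0.09. Another of Ier5 fell by 1.11. Further probe sets of Nr4a2 (0.71 and 0.05), Egr3 (0.54) and Klf6 (-0.33) did not pass either. A further probe set of Nr4a3 rose by 0.5 (adjusted p = 0.0247). Those of Btg1 and Nfkbia that passed fell by 1.68 and 0.39 (adjusted p = 0.00319 and 0.0306). The brightest of Nr4a3, Btg1 and Nfkbia did not pass. A dimmer one of Gadd45b fell by 1.39 (adjusted p = 0.00133), while its brightest was at 0.78. Fos fell by 4.07 ± 0.48 (16.8-fold, adjusted p = 0.000642), Hspa1b fell by 3.09 ± 0.51 (8.49-fold, 0.00365), Dusp1 fell by 2.51 ± 0.37 (5.68-fold, 0.00197) and Jun fell by 2.31 ± 0.43 (4.96-fold, 0.00625). Egr1 fell by 1.38 ± 0.35 (adjusted p = 0.0230, range 0.00547 to 0.0746), but not without IL15tg replicates 1, 2 or 3 (0.0589, 0.0746 and 0.0730) or bone marrow replicate 1 (0.0522). Fosl2 was lost without IL15tg replicates 1 or 2 (0.0724 and 0.0791), and Ier5 without IL15tg replicates 2 or 3 or bone marrow replicates 1 or 2 (0.0504 to 0.0757). Btg2 was lost without any 1 IL15tg array or bone marrow replicate 2 (0.0712 to 0.103), and Jund without any 1 array other than bone marrow replicates 2 and 3 (0.0553 to 0.132). Over all alternatives their adjusted p ranged to 0.0791, 0.0757, 0.212 and 0.446. Dusp6 (1.61 ± 0.19) and Myc (0.82 ± 0.17) rose again, and Gadd45a did not pass (0.06 ± 0.19, adjusted p = 0.816).

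By block, the members that fell in bone marrow relative to IL15tg spleen were 4 of 7 in AP-1, 1 of 3 in EGR, 1 of 3 in NR4A, 2 of 4 in DUSP, 1 of 3 in NF-kB feedback, 2 of 2 in heat shock, 2 of 2 in IER, 3 of 3 in KLF, 2 of 4 in RNA decay and BTG, 0 of 2 in RGS and 1 of 3 in GADD. In spleen the same counts were 2, 0, 1, 1, 0, 1, 1, 3, 1, 0 and 1. Of the 4 genes outside these blocks (Sgk1, Cd69, Myc and Per1) 1 fell in each comparison, Sgk1. Over all genes tested 8.70% fell in bone marrow against IL15tg spleen and 4.86% in spleen. Whether blocks differ from each other was not tested.

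The members also varied within groups. The median SD of log2 intensity between arrays of a group was 0.21 for IL15tg spleen (0.12 over all genes tested), 0.23 for NKDxIL15tg spleen (0.15) and 0.33 for bone marrow (0.20). The widest were Hspa1b in IL15tg spleen (0.96), Fos in NKDxIL15tg spleen (1.04) and Gadd45b in bone marrow (1.59). IL15tg replicate 2 was the highest array of its group for 24 of the 40 members (60%, against 29.7% of genes), including Fos, Jun, Dusp1, Dusp2, Ier2 and Zfp36, but not Hspa1b, which peaked in replicate 3. In NKDxIL15tg spleen, replicate 2 was highest for 19 (47.5%, against 32.3%), among them Egr1, Egr3, Dusp1 and Cd69, and replicate 1 was lowest for 18 (45%, against 28.6%), among them Fos, Jun, Egr1 and Nr4a2. In bone marrow, replicate 1 was highest for 20 (50%, against 27.7%) and replicate 3 lowest for 17 (42.5%, against 30.6%).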

How the data were processed

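Per the labels' protocols, total RNA was taken with Trizol and labelled after 2 cycles of 3′ amplification. For each of 9 arrays the authors deposited linear intensities of 45101 probe sets. The method of probe summary and scaling was not given in the sources used here. Values under 16 (4.36%) were set to 16 and log2 transformed. The 64 control probe sets were left out, and 27040 probe sets whose mean log2 reached 5.58 (the 40th percentile, or 47.7 in intensity) were tested. A model of 3 group means was fitted with limma 3.58.1 in R 4.3.3, 2-sided. With 3 arrays against 3 an exact test of 1 gene could not reach p = 0.05. The labels call the samples biological replicates; their number limits the precision. The labels number the replicates but do not say what same-numbered arrays share, and the main fit has no block. Deviations of same-numbered arrays correlated at 0.122 to 0.162 between NKDxIL15tg and IL15tg spleen and at 0.227 to 0.379 between NKDxIL15tg spleen and bone marrow. Between bone marrow and IL15tg spleen the correlations were -0.0234 to 0.242. Those of differently numbered arrays are not given here. A fit with the number as a block is therefore reported as an alternative for the first 2 comparisons. The fit was tested on simulated data. Symbols are those of the platform annotation, with lists matched also through RefSeq synonyms. Members, blocks and lists were chosen with earlier results of these data known. Named in full are members that passed in 1 of the first 2 comparisons and the brightest of each block without one; other members with values were chosen after these were seen. Alternatives were scaling, floor, filter, probe set choice, weights, the replicate block, the arrays fitted and leaving out each array.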

Additional observations from a re-analysis of the deposited data

How the results depend on the processing

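The count of members that passed in NKDxIL15tg spleen against IL15tg spleen (15) was 9 to 21 without 1 array and 12 to 23 over the 10 other settings, with 23 under array weights. It was 0 in every one of the 19 settings between bone marrow and spleen, and 17 to 23 in bone marrow against IL15tg spleen (main value 22). Of all probe sets, 3727 passed in spleen, 5686 with array weights, and 1809 to 5485 without 1 array. Between bone marrow and spleen 14 passed, 4 with a floor of 64, 2 without a filter, 23 with the replicate block, and 1 to 15 without 1 array. In bone marrow against IL15tg spleen the 5766 became 3089 to 6342 without 1 array. The cause of these shifts was not tested, except that leaving out an array leaves fewer samples. The replicate block gave 16 members in spleen in place of 15: it ended the call of Jund (adjusted p = 0.0649) and added Dusp1 and Btg2. It changed no other member's call there or between bone marrow and spleen. Of 15 member calls in spleen 8 held in each setting that kept the gene, and of 22 in bone marrow against IL15tg spleen 17; no call turned its sign. Fosl2, Jund, Egr1, Ier5 and Btg2 were the calls lost there in at least 1 setting. For the 8 pathway lists, counts stayed within 1.5 times in 115 of 152 cases in spleen.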
